A study of Mus musculus with 8 samples.

Results

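Cells carry proteins that recognise double-stranded RNA and answer with an interferon programme, and 9 genes of that machinery were followed here in the mouse retina: *Ifih1*, *Ddx58*, *Eif2ak2*, *Adar*, *Isg15*, *Ifit1*, *Ifit3*, *Irf7* and *Bst2*. They were taken by name from the 54532 genes of the count table, and each name matched 1 gene. The data are bulk RNA-seq of retinas at postnatal day 7, with 4 control libraries and 4 *Mettl3*-CKO libraries. The *Mettl3*-CKO pups were *Six3-Cre*+ and carried *Mettl3* floxed/floxed, and the labels do not spell out the genotype of the controls. The study names littermate controls for other assays, and its RNA-seq methods do not say whether these controls were littermates. *Six3-Cre* acts in retinal progenitor cells, so vessels, microglia and other cells that enter the eye from elsewhere are not its targets, and the study's staining showed the deletion in the central retina. The labels do not say whether a library came from 1 pup or from several. The methods give the age as 1 day earlier than the labels do. The question put to the 9 genes is whether a retina that has lost METTL3, the enzyme that writes N6-methyladenosine (m6A) into RNA, shows raised transcripts of double-stranded RNA sensing and interferon response.

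MDA5 (encoded by *Ifih1*) and RIG-I (encoded by *Ddx58*) are cytosolic RNA helicases that bind long double-stranded RNA and RNA with a free 5′ triphosphate, respectively, and signal through the mitochondrial adaptor MAVS to the transcription factors IRF3 and IRF7. The interferons made in answer act through a cell surface receptor and JAK kinases on transcription factors, STAT2 and IRF9 among them, which bind interferon-stimulated response elements in the promoters of target genes. PKR (*Eif2ak2*) halts translation when it binds double-stranded RNA, ADAR1 (*Adar*) converts adenosine to inosine in such RNA and so keeps a cell's own transcripts from being sensed, and ISG15, IFIT1, IFIT3 and BST2 are products of genes that interferon induces. In the retina, microglia, vessels, glia and neurons can all take part in this response.

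The interferon-stimulated response element is read here as the letters GAAANNGAAA or their reverse complement TTTCNNTTTC. In the RefSeq promoter windows of GRCm38.p6, which run from 250 bases before to 50 bases after a transcription start, 7 of the 9 genes (77.8%) held these letters, and *Adar* (3 starts) and *Irf7* did not. Of all 27025 gene symbols 1079 (3.99%) held them in any window, as did 24 of 51 matched interferon-stimulated genes outside the 9 (47.1%). Counted by window, 1131 of 32851 (3.44%) held them. The 9 genes include known interferon targets, so this is a description of how they were composed. Matches on either strand were searched and overlapping matches were counted. In *Ifih1*, *Ddx58* and *Eif2ak2* the 1 match lay just after the start, with its first base at position 33, 3 and 19 counted from the first transcribed base. *Isg15* had 3 overlapping matches whose first bases lay 78, 72 and 66 bases before the start. *Ifit1* had 2 at 104 and 85 bases before it, and *Ifit3* had 2 at 156 and 122 bases before it. *Bst2* had 2 overlapping ones at 130 and 124 bases before its RefSeq start. The bases just after that start were not found in the *Bst2* transcripts used here, so these positions may not refer to the transcript counted. For the *Adar* start with the window chr3:89730468-89730767, those bases were likewise not found in the *Adar* transcripts. The stretches shown are those of *Ifih1*, the only one of the 9 to pass the test described later, and of *Isg15*, *Ifit1* and *Bst2*, the effectors whose levels were highest in control replicate 2. Each is written 5′ to 3′ on the strand of its gene with the matching letters in capitals.
Ifih1, chr2:62646206-62646233, minus strand: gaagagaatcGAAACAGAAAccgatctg
Isg15, chr4:156200850-156200921, minus strand: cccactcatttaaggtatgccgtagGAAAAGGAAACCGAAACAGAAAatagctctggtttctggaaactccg
Ifit1, chr19:34640760-34640838, plus strand: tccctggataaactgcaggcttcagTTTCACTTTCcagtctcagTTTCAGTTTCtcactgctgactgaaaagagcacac
Bst2, chr8:71537562-71537627, minus strand: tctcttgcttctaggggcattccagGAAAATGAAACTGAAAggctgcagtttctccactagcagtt
A match says only that these letters are present, and binding at these windows was not measured.

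Total counts ranged from 16227095 to 20281517 per library, so that 3 counts, taken as the floor of detection, equal 0.148 to 0.185 CPM (counts scaled to a common library total). The libraries of each group are numbered by replicate, 1 to 4. CPM values below are scaled by edgeR's TMM factors, log2 fold changes are *Mettl3*-CKO minus control, and a gene was called at an adjusted p under 0.05 in edgeR's quasi-likelihood test over 17998 genes. Photoreceptor genes marked all 8 libraries as retina, with *Nrl*, the rod transcription factor, at 364 to 960 CPM. *Mettl3* (chr14:52294841-52305128, minus strand) had means of 24.0 ± 3.97 CPM in *Mettl3*-CKO and 31.1 ± 2.26 CPM in controls (SD, n = 4 each), so that the log2 fold change was -0.38 with a standard error of 0.12 and an adjusted p of 0.0602 in edgeR's test, and *Mettl3*-CKO replicate 2, at 29.6 CPM, lay within the control range of 29.2 to 33.7 CPM. The RNA of the floxed gene was therefore not clearly separated between the groups. The 3′ end of *Mettl3* overlaps *Tox4* on the opposite strand. Control replicate 2 stood apart for interferon-stimulated genes, as described below, and values are given with and without it. It was singled out after its values were seen. Over all genes with at least 10 counts, control replicate 1 was more often the highest library (21.7%) than control replicate 2 (9.01%).

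None of the 9 genes was called higher in *Mettl3*-CKO retinas by edgeR, DESeq2 or limma voom, and none was higher at an unadjusted p under 0.05 in edgeR (0.158 for *Eif2ak2*, the lowest). *Ifih1* alone was called, and it was lower. Over all genes tested, 6.49% were called higher and 4.05% lower. Of the 9 genes 6 had enough counts to be tested (*Ifih1*, *Ddx58*, *Eif2ak2*, *Adar*, *Irf7* and *Bst2*). *Isg15*, *Ifit1* and *Ifit3* were left out by edgeR's filter on low counts. With all 8 libraries the median log2 fold change of the 6 was -0.47, against -0.01 over all genes tested. Without control replicate 2 their log2 fold changes were, in the order given, -0.73, 0.14, 0.63, 0.19, -0.11 and -0.08. Control replicate 2 was the highest library for *Ifih1*, *Ddx58*, *Irf7* and *Bst2*, so leaving it out had to raise their log2 fold changes. The shift is a description and no separate evidence on the low median. The upper ends of the 95% intervals of the 6 log2 fold changes lay between -0.41 and 0.86 with all 8 libraries, and between -0.12 and 1.13 without control replicate 2. Since the libraries are of whole retina, fewer cells of a type and less RNA per cell cannot be told apart in any of these values.

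**Figure D1:**
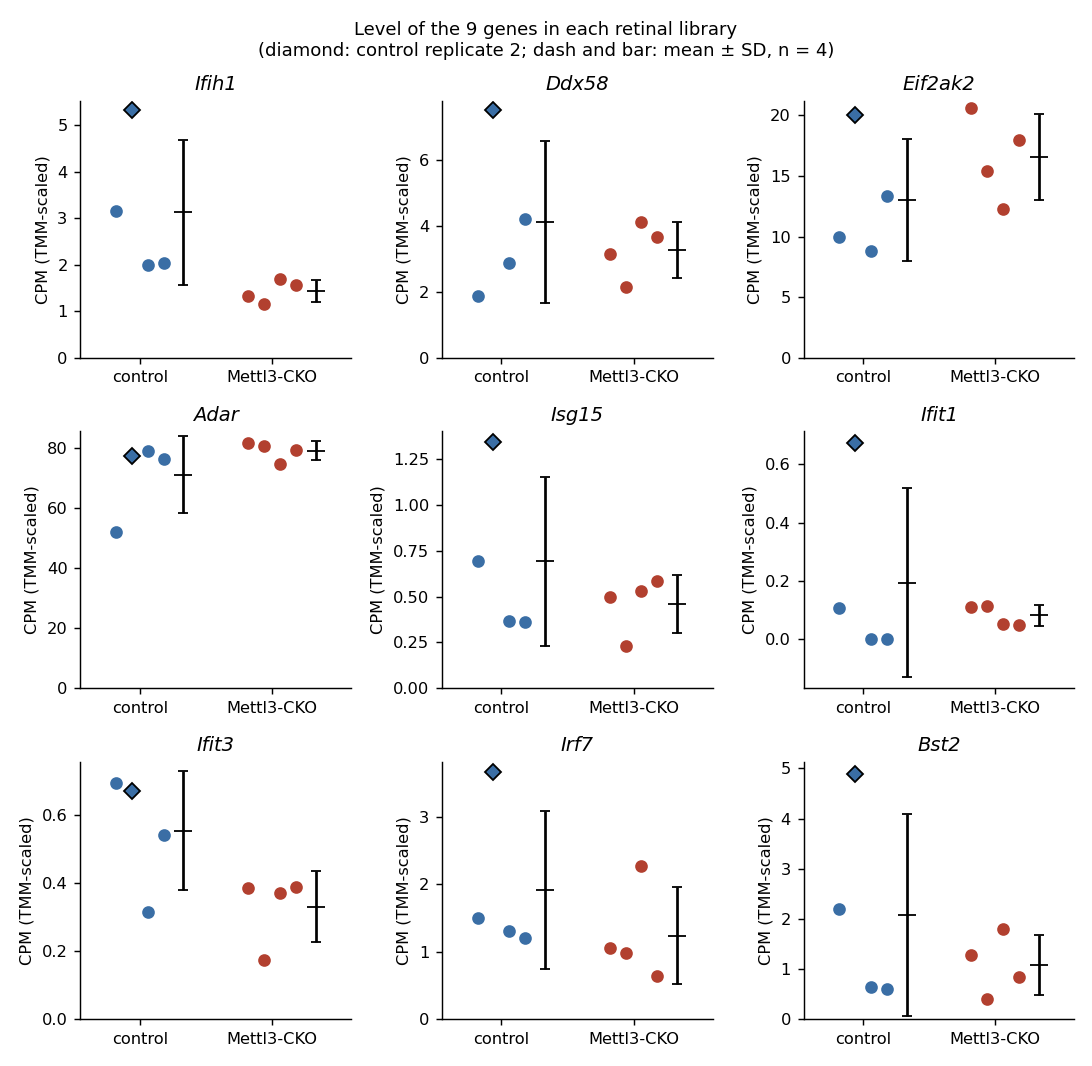
TMM-scaled CPM of the 9 genes in each of the 4 control and 4 *Mettl3*-CKO libraries. Each point is 1 library, the diamond is control replicate 2, and the dash and bar give the mean ± SD of the group. For 6 of the 9 genes the diamond is the highest of the 8 points, and only for *Ifih1* do all *Mettl3*-CKO points lie below all control points.

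Among the sensors, *Ifih1* (chr2:62595798-62646255, minus strand) encodes MDA5. Levels of 1.32, 1.16, 1.70 and 1.56 CPM were measured across *Mettl3*-CKO libraries 1 to 4, against 3.15, 5.32, 1.99 and 2.05 CPM across control libraries 1 to 4. Every *Mettl3*-CKO library lay below every control library, which was so for 7.51% of all genes tested, and control replicate 2 was the highest. The means were 1.43 ± 0.241 CPM and 3.13 ± 1.56 CPM (SD, n = 4 each). *Ifih1* fell by 1.11 on the log2 scale (standard error 0.32, 95% interval -1.81 to -0.41, adjusted p = 0.0457 in edgeR's test). The exact two-sided permutation test of its log2 CPM gave p = 0.0286, the smallest that 4 against 4 libraries allow. The call rests on few counts, 20 to 32 in *Mettl3*-CKO and 34 to 87 in control libraries, and on particular libraries. Without control replicate 2 the log2 fold change was -0.73 (standard error 0.28, 95% interval -1.35 to -0.12) and the adjusted p from edgeR 0.155. With *Mettl3*-CKO replicate 1, 2, 3 or 4 left out the log2 fold change was -1.07, -1.02, -1.20 or -1.15, with adjusted p of 0.146, 0.117, 0.0817 or 0.0851 from edgeR. With control replicate 1, 3 or 4 left out *Ifih1* was still called.

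*Ddx58* (chr4:40203773-40239828, minus strand), encoding RIG-I, stood at 3.15, 2.14, 4.14 and 3.66 CPM across *Mettl3*-CKO libraries 1 to 4, against 1.87, 7.52, 2.88 and 4.21 CPM across control libraries 1 to 4. The control range enclosed the *Mettl3*-CKO range, with control replicate 1 the lowest and control replicate 2 the highest of all libraries. Its log2 fold change was -0.32 (standard error 0.36, 95% interval -1.09 to 0.46, adjusted p = 0.641 in edgeR's test). Without control replicate 2 the direction turned, to 0.14 with an adjusted p of 0.856 from edgeR and a 95% interval of -0.54 to 0.81. *Dhx58*, which encodes LGP2, the third helicase of this family, had 1.28 ± 0.298 CPM in *Mettl3*-CKO and 0.912 ± 0.346 CPM in controls (SD, n = 4 each; adjusted p = 0.398). The endosomal sensor *Tlr3* had 2.28 ± 0.182 CPM and 2.43 ± 0.760 CPM (SD, n = 4 each; adjusted p = 0.860).

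Of the proteins that act on double-stranded RNA directly, *Eif2ak2* (chr17:78852564-78882573, minus strand) encodes the kinase PKR. It was measured at 20.6, 15.5, 12.3 and 17.9 CPM across *Mettl3*-CKO libraries 1 to 4, against 9.94, 20.05, 8.79 and 13.4 CPM across control libraries 1 to 4. The groups overlapped: the highest library was *Mettl3*-CKO replicate 1, with control replicate 2 next, and the 2 lowest were control replicates 1 and 3. The log2 fold change was 0.35 (standard error 0.23, 95% interval -0.16 to 0.86, adjusted p = 0.397 in edgeR's test). Without control replicate 2, only *Mettl3*-CKO replicate 3 overlapped the controls, and the log2 fold change was 0.63 (standard error 0.20, 95% interval 0.20 to 1.07) with an adjusted p of 0.0854 from edgeR, which did not pass the threshold. The other kinases that phosphorylate eIF2alpha, 3 in number, gave no call, with log2 fold changes of -0.19, 0.00 and 0.19.

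*Adar* (chr3:89715022-89753446, plus strand), encoding ADAR1, was the most abundant of the 9. Its values were 81.6, 80.7, 74.5 and 79.3 CPM across *Mettl3*-CKO libraries 1 to 4, against 51.9, 77.2, 78.9 and 76.4 CPM across control libraries 1 to 4. All libraries but control replicate 1 lay close together, and that library was the lowest of the 8. A log2 fold change of 0.15 was found (standard error 0.12, 95% interval -0.11 to 0.42, adjusted p = 0.498 in edgeR's test), and 0.03 without control replicate 1. *Adar* overlaps *Chrnb2* on the opposite strand, with 14.4% of its transcripts' 50-base windows shared, and the sources used here do not say whether strand was used in counting. Its neuronal relative *Adarb1*, which encodes the editor of glutamate receptor transcripts, was at 92.8 ± 14.5 CPM in *Mettl3*-CKO and 106 ± 8.80 CPM in controls (SD, n = 4 each; adjusted p = 0.316), and is named here after its values were seen.

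*Irf7* (chr7:141262706-141266481, minus strand), the transcription factor that amplifies interferon production, was at 1.05, 0.984, 2.28 and 0.634 CPM across *Mettl3*-CKO libraries 1 to 4, against 1.496, 3.67, 1.31 and 1.20 CPM across control libraries 1 to 4. Control replicate 2 was again the highest and *Mettl3*-CKO replicate 3 the next, above the other 3 controls. Its log2 change of -0.62 (standard error 0.44, 95% interval -1.59 to 0.34, adjusted p = 0.432 in edgeR's test) moved to -0.11 (adjusted p = 0.915, 95% interval -1.02 to 0.79) without control replicate 2. The last bases of *Irf7* overlap *Phrf1* on the opposite strand.

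Among the interferon-stimulated effectors, *Bst2* (chr8:71534255-71537456, minus strand) encodes tetherin, a membrane protein that holds budding virus particles at the cell surface. It stood at 1.27, 0.405, 1.80 and 0.8292 CPM across *Mettl3*-CKO libraries 1 to 4, against 2.19, 4.89, 0.628 and 0.6015 CPM across control libraries 1 to 4. The controls were split, with replicates 1 and 2 above every *Mettl3*-CKO library and replicates 3 and 4 below 3 of them. Its log2 fold change was -0.93 (standard error 0.62, 95% interval -2.26 to 0.40, adjusted p = 0.393 in edgeR's test), and -0.08 without control replicate 2 (adjusted p = 0.956, 95% interval -1.29 to 1.13).

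The other 3 effectors were close to the floor of detection, and their counts are given. *Isg15* (chr4:156199424-156200818, minus strand), a ubiquitin-like protein that is joined to other proteins, had 9, 4, 10 and 12 counts across *Mettl3*-CKO libraries 1 to 4, against 13, 22, 7 and 6 across control libraries 1 to 4. Control replicate 2 was the highest and *Mettl3*-CKO replicate 2 the lowest, and the groups overlapped. The summed CPM of *Mettl3*-CKO was 0.696 times that of the controls, with a 95% interval of 0.437 to 1.10 for counting error only, and 0.991 times (0.580 to 1.71) without control replicate 2.

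*Ifit3* (chr19:34583531-34588731, plus strand), one of the tetratricopeptide repeat proteins that block translation of foreign RNA, had 7, 3, 7 and 8 counts across *Mettl3*-CKO libraries 1 to 4, against 13, 11, 6 and 9 across control libraries 1 to 4. Only control replicate 3 lay within the *Mettl3*-CKO range, and the exact two-sided permutation test of log2 CPM gave p = 0.114 (4 against 4 libraries). Its summed CPM ratio was 0.612 (0.355 to 1.04, counting error only). *Ifit3* is uncertain because 51.2% of its 50-base windows also occur in its near copy *Ifit3b*, which had at most 0.214 CPM in any library.

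*Ifit1* (chr19:34640871-34650009, plus strand), which binds RNA that lacks the host's cap methylation, had 2, 2, 1 and 1 counts across *Mettl3*-CKO libraries 1 to 4, against 2, 11, 0 and 0 across control libraries 1 to 4. Of the 13 counts in controls, 11 came from control replicate 2, and the other 7 libraries were at or below the floor of 3 counts. The summed CPM ratio was 0.440 (0.137 to 1.24, counting error only) with that library and 2.21 (0.395 to 22.4) without it. At this depth no difference in *Ifit1* was detectable.

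**Figure D2:**
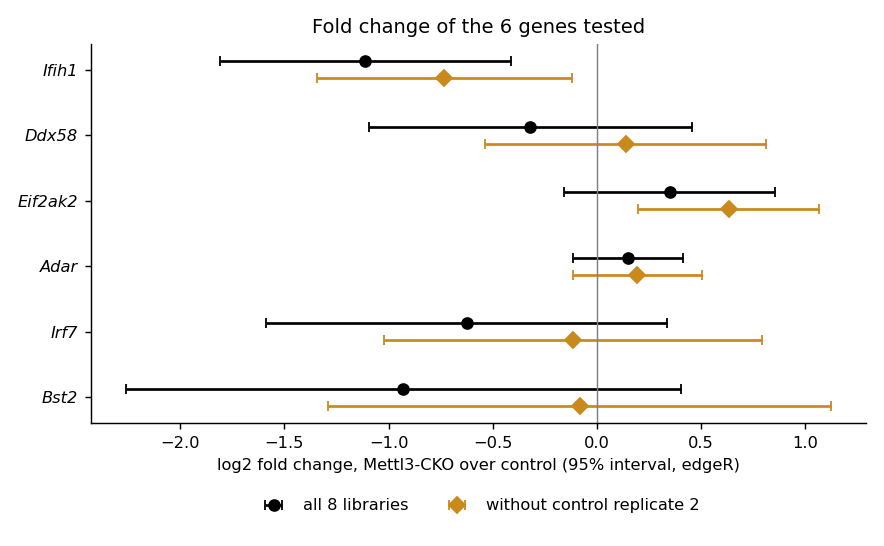
Log2 fold changes (*Mettl3*-CKO minus control) of the 6 tested genes with 95% intervals from edgeR's quasi-likelihood fit, in black with all 8 libraries and in orange without control replicate 2. With all 8 libraries only the interval of *Ifih1* lies off 0. Without control replicate 2 *Ifih1* moves from -1.11 to -0.73, *Eif2ak2* from 0.35 to 0.63 and *Bst2* from -0.93 to -0.08.

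The genes also differed widely among themselves in level. Per length, as fragments per kilobase and library total (FPKM) in the controls, the order was *Adar* at 8.75 ± 1.70, *Eif2ak2* at 2.55 ± 1.02, *Bst2* at 2.29 ± 2.25, *Isg15* at 0.913 ± 0.618, *Ddx58* at 0.586 ± 0.356, *Irf7* at 0.508 ± 0.315, *Ifih1* at 0.382 ± 0.193, *Ifit3* at 0.317 ± 0.0977 and *Ifit1* at 0.0736 ± 0.123 (SD, n = 4 each). *Adar* exceeded *Eif2ak2* in 8 of 8 libraries and in controls was the only gene whose lowest library lay above the highest library of the next in order. All other neighbours overlapped. In *Mettl3*-CKO libraries the first 2 places were the same, with *Adar* at 9.77 ± 0.449 and *Eif2ak2* at 3.26 ± 0.717 FPKM (SD, n = 4 each), and *Ifih1*, at 0.176 ± 0.0292 FPKM, stood next to *Ifit3* at 0.190 ± 0.0607 FPKM. The mRNA of the editor was thus far more abundant than that of the cytosolic sensors *Ifih1* and *Ddx58* in both groups.

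Control replicate 2 was the highest of the 8 libraries for *Ifih1*, *Ddx58*, *Isg15*, *Ifit1*, *Irf7* and *Bst2*. The same library was highest for 27 of 62 other interferon-stimulated genes with at least 10 counts (43.5%), against 9.01% of 25552 genes with that many counts. Among those too low to be tested it was highest for 14 of 28 (50%), against 13.4% of 7554 genes. *Irf9*, which encodes a DNA-binding factor that carries the interferon signal, was at 20.7 CPM in control replicate 2 and between 8.18 and 15.2 CPM in the other 7 libraries. *Oas1a*, an activator of RNase L, had 0.794 CPM in control replicate 2 and 0 to 0.195 CPM elsewhere. In the same library the summed level of 16 microglial genes was 123 CPM, within the control range of 78.3 to 239 CPM and below all 4 *Mettl3*-CKO libraries at 135 to 199 CPM. The 8 lymphocyte genes summed to 5.79 CPM there, within the 4.45 to 6.16 CPM of the controls. No treatment or state of health is given in the labels for this library.

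**Figure D3:**
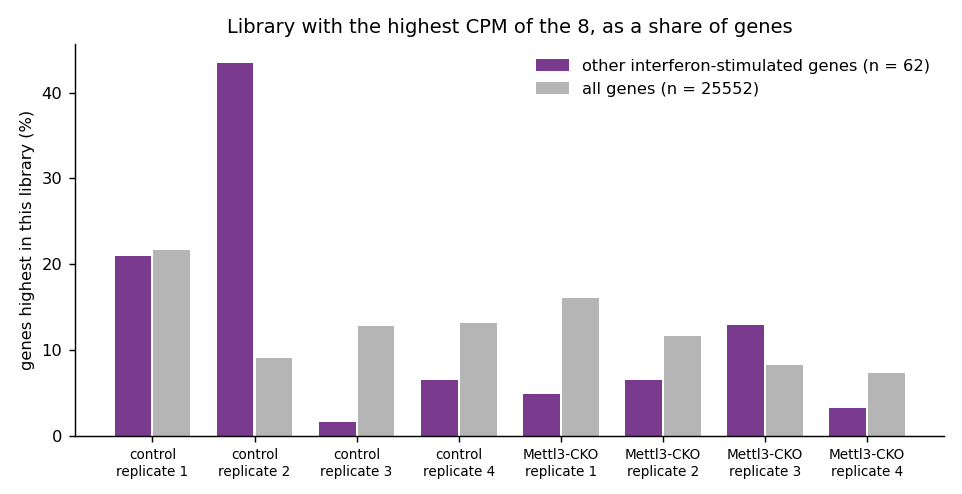
Share of genes, in percent, for which each of the 8 libraries has the highest CPM, with purple bars for 62 interferon-stimulated genes outside the 9 and grey bars for all 25552 genes with at least 10 counts. Control replicate 2 holds 43.5% of the interferon-stimulated genes, against 9.01% of all genes.

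Among the genes whose levels ran most like the mean of the 6 tested genes were *Whamm* (Pearson's r = 0.88), *Mthfsl* (0.86), *Rnf213* (0.85) and *Pptc7* (0.85), of 14309 genes compared over the 8 libraries. These are descriptions with 8 shared points and no p. Without control replicate 2 and *Mettl3*-CKO replicate 2, the libraries farthest from the median of that mean, r was 0.87 for *Whamm*, 0.65 for *Mthfsl*, 0.70 for *Rnf213* and 0.37 for *Pptc7*. None of the 4 was called, with adjusted p from edgeR between 0.721 (*Pptc7*) and 0.986 (*Whamm*).

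Beyond the 9 genes, 166 other genes of the pathway were listed, from ligands to effectors, and 106 were tested. Of these 6 (5.66%) were called higher and 2 (1.89%) lower, against 6.49% and 4.05% of all genes tested, and their median log2 fold change was -0.05. The shares lie near or under the background in both directions. The 8 called genes had groups that did not overlap, but they were picked by a test on the same values, so this adds no support.

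The interferons themselves were not measurable. All 21 listed ligand genes had at most 3 counts in every library and 17 had none in any, among them *Ifnb1*, the interferon that sensors induce first, at 0 counts in all 8 libraries. A ligand made by few cells or for a short time could pass unseen at this depth. The receptor chains were present in every library: *Ifnar1* had 95.4 ± 4.05 CPM in *Mettl3*-CKO and 87.5 ± 6.48 CPM in controls (adjusted p = 0.402), and *Ifnar2* had 11.6 ± 0.548 CPM and 9.52 ± 1.15 CPM (adjusted p = 0.185, SD, n = 4 each). For *Ifnar2* the groups did not overlap, yet its log2 fold change of 0.28 did not pass the test. Of 17 tested genes of the receptors and JAK-STAT pathway, *Socs3*, an inhibitor of JAK signalling that interleukins also induce, alone was called. It rose from 11.8 ± 1.52 CPM to 17.5 ± 3.62 CPM (SD, n = 4 each), a log2 fold change of 0.57 (adjusted p = 0.0321), and was called in 4 of the 8 fits that leave out 1 library. In those fits its log2 fold change ran from 0.42 to 0.66, and the call was lost without *Mettl3*-CKO replicate 1 or 2 and without control replicate 2 or 3.

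Between the sensors and the interferon genes, 21 signalling genes gave 1 call each way. *Trim25*, a ubiquitin ligase that activates RIG-I and is itself induced by interferon, was at 18.2, 22.9, 21.0 and 26.7 CPM across *Mettl3*-CKO libraries 1 to 4, against 26.7, 42.5, 33.1 and 32.9 CPM across control libraries 1 to 4. *Mettl3*-CKO replicate 4 and control replicate 1 nearly met. It fell by 0.61 on the log2 scale (standard error 0.15, adjusted p = 0.0214 in edgeR's test) and was called in 5 of the 8 fits that leave out 1 library, but not without *Mettl3*-CKO replicate 1 (-0.52) or 3 (-0.58) or control replicate 2 (-0.48). *Traf6*, a ubiquitin ligase of Toll-like receptor signalling, rose by a log2 fold change of 0.36 (adjusted p = 0.0333). It was called only without *Mettl3*-CKO replicate 4 or control replicate 1, and its log2 fold change ran from 0.29 to 0.41 over the 8 such fits. *Mavs*, the adaptor of both helicases, was at 19.0 ± 2.71 and 16.7 ± 2.05 CPM (SD, n = 4 each) in *Mettl3*-CKO and controls, and *Irf3*, the factor it activates, at 41.7 ± 3.10 and 41.8 ± 5.80 CPM (SD, n = 4 each), with adjusted p of 0.445 and 0.984.

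The interferon-stimulated genes outside the 9 gave 2 calls higher and 1 lower among 34 tested of 68, with a median log2 fold change of -0.21. *Slfn9*, a Schlafen family gene, was at 37.6, 43.8, 39.0 and 25.9 CPM across *Mettl3*-CKO libraries 1 to 4, against 12.1, 20.2, 21.1 and 20.5 CPM across control libraries 1 to 4. It rose by 0.98 on the log2 scale (standard error 0.18, adjusted p = 0.00632) and was called in all 8 fits that leave out 1 library. *Ifit2*, a neighbour and relative of *Ifit1* and *Ifit3*, was at 17.3, 21.5, 17.7 and 16.1 CPM against 13.9, 12.5, 13.5 and 12.6 CPM in the same order. All *Mettl3*-CKO libraries lay above all controls, control replicate 2 was the lowest of the 8, and the log2 fold change was 0.46 (standard error 0.12, adjusted p = 0.0248). The call held in 3 of the 8 fits that leave out 1 library, those without *Mettl3*-CKO replicate 4 or control replicate 1 or 3, with log2 fold changes from 0.37 to 0.52 over the 8. *Ifit2* thus differed from *Ifit1* and *Ifit3* in level, with at least 12.5 CPM in every library, and in which library was highest. *Trafd1*, a feedback inhibitor of Toll-like receptor signalling, fell by 0.41 on the log2 scale (adjusted p = 0.0115) and was called in all 8 such fits.

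**Figure D4:**
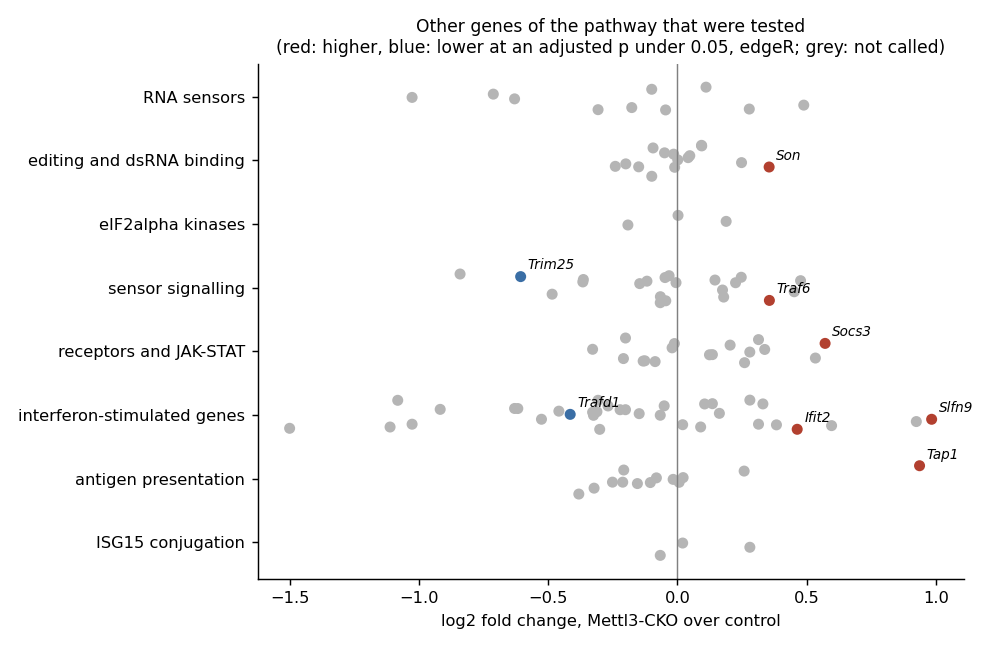
Log2 fold changes (*Mettl3*-CKO minus control) of the tested genes of each pathway list, 1 point per gene, with genes called higher in red, called lower in blue and the rest in grey. Called genes are few in every list, and the points of most lists spread around 0.

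Several classical interferon targets were not among the calls. *Stat2* had a log2 fold change of -0.20 (adjusted p = 0.251), *Irf9* of 0.14 (0.813) and *Rsad2*, which encodes the antiviral enzyme viperin, of -0.92 (0.456), all from edgeR. Of these, *Irf9* was called without control replicate 2, with a log2 fold change of 0.58 and an adjusted p of 0.0467 from edgeR. Its level was highest in that library, which was singled out after its values were seen, so this call adds no support. *Mx1* and *Oas1a* were too low to be tested, at no more than 0.477 and 0.794 CPM in any library. Among 13 tested genes of antigen presentation, *Tap1*, the peptide transporter, was the only one called: it stood at 7.34, 5.09, 5.99 and 6.88 CPM across *Mettl3*-CKO libraries 1 to 4, against 3.53, 4.64, 2.25 and 2.83 CPM across control libraries 1 to 4. It rose by 0.94 on the log2 scale (standard error 0.22, adjusted p = 0.0189), with 0.86 and no call without *Mettl3*-CKO replicate 1 and 0.87 and no call without control replicate 4, and its start overlaps *Psmb9* on the opposite strand. *B2m*, the shared light chain of class I molecules, had 22.7 ± 3.26 and 22.9 ± 5.27 CPM (SD, n = 4 each; adjusted p = 0.966).

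Of 15 tested genes for editing, RNase and double-stranded RNA binding proteins outside the 9, *Son*, whose product binds RNA and takes part in splicing, was the only one called, with a log2 fold change of 0.36 (adjusted p = 0.0159) from a level of 1592 ± 72.8 CPM in controls to 2038 ± 55.5 CPM in *Mettl3*-CKO (SD, n = 4 each). Without *Mettl3*-CKO replicate 1 (0.35) or control replicate 3 (0.33) it was not called. The 10 tested sensors and the 3 tested genes of ISG15 conjugation outside the 9 gave no call, with median log2 fold changes of -0.14 and 0.02.

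Transcripts of some other cell types moved with the groups, and their part in the values of the 9 genes was not tested. Of 16 tested endothelial genes 11 were called lower in *Mettl3*-CKO, with a median log2 fold change of -1.32. The summed level of that list without *Kdr*, which retinal neurons also express, was 29.1 to 41.4 CPM in *Mettl3*-CKO and 56.3 to 145 CPM in control libraries, with control replicate 2 at 63.9 CPM, so that, as for *Ifih1*, every *Mettl3*-CKO library lay below every control library. Of 3 tested erythrocyte genes 2 were called lower, and the list of 7 summed to 4.34 to 7.45 CPM in *Mettl3*-CKO and 14.2 to 26.5 CPM in controls. Of 9 tested lens genes 6 were called lower, and here single control libraries stood apart: the list of 17 summed to 5806 CPM in control replicate 4 and 109 CPM in control replicate 1, against 8.73 to 29.8 CPM in the other 6 libraries. Of 16 microglial genes none was called in edgeR's test, with a median log2 fold change of 0.28, and of 8 lymphocyte genes 2 were tested and neither was called. Rod genes were called lower for 6 of 12, progenitor and cycling cell genes higher for 4 of 11, and Müller glial genes higher for 1 and lower for 1 of 9.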

How the data were processed

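RNA-seq of postnatal day 7 mouse retina was analysed in 4 control and 4 *Mettl3*-CKO libraries. The authors made NEBNext Ultra libraries, aligned paired-end reads with Hisat2 (build GRCm38) and ran featureCounts on the genes. The deposited values are these raw counts, whose annotation release and strand setting are not given in the sources used here. The authors calculated FPKM from such counts, but FPKM here was computed from the deposited counts and gene lengths.

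The main test was edgeR 4.0.16 under R 4.3.3 (filterByExpr, TMM, quasi-likelihood test, Benjamini-Hochberg adjustment over 17998 genes, threshold 0.05). The standard error is the absolute log2 fold change divided by the square root of F. Unless another tool is named, adjusted p-values are from this fit. Single genes were also tested by exact two-sided permutation of log2 CPM (prior count 2) over all 70 splits. Pooled CPM ratios have exact 95% intervals, which cover counting error only. DESeq2 1.42.0, voom with quality weights (limma 3.58.1), other scalings and filters, a replicate block and leaving out each library were alternatives. The test was checked on counts simulated from edgeR's own fitted model, so that check does not cover libraries that stand apart. The lowest chi-square between libraries of a group was 5.47 per gene, so none was taken as a duplicate. The highest were those of control replicate 1, at 26.3, 38.3 and 46.0 per gene against control replicates 2, 3 and 4. The methods call for biological replicates in tested experiments but do not tie these libraries to single pups or litters, so p-values measure the spread between these samples.

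Promoter sequences are from RefSeq (GRCm38.p6), which matched all 9 genes. Shared 50-base windows were counted in GENCODE vM21 transcripts on both strands. The 9 genes and the pathway and marker lists were chosen with earlier results of these data known. The text names the 9 genes, every called gene of a pathway list up to 4 in each direction, a fixed set of pathway genes called or not, and the 5 genes with mean log2 CPM of at least 1 most correlated with the mean of the tested genes. Some items that this rule covers are not reported here. Single-cell and m6A data were not analysed here.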

Additional observations from a re-analysis of the deposited data

Results flagged for a closer look

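The 9 genes were examined for a library far from the other 3 of its group, which makes 18 groups of 4, and chance marks about 1 group in 20. *Adar* in control replicate 1, at a log2 CPM of 5.70 against 6.26 to 6.30 in the other controls, lay at a gap of 0.923 of the group's range, above Dixon's 95% critical value for 4 samples. *Ifit3* in *Mettl3*-CKO replicate 2, at a log2 CPM of -1.82 against -1.055 to -0.9997 in the other *Mettl3*-CKO libraries, lay at a gap of 0.932. The *Ifit3* value rests on 3 counts.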

How the results depend on the processing

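No alternative called any of the 9 genes higher. *Ifih1* was called lower in 8 of 15 alternatives, with log2 fold changes from -1.27 to -0.73 and adjusted p from 0.00986 to 0.155. The call was lost with voom (log2 fold change -0.97, adjusted p = 0.0627 from limma), with the replicate block, and without any 1 *Mettl3*-CKO library or control replicate 2, so the count of genes called lower among the 9 was 0 there, and 0 to 1 over all fits without 1 library. Deviations of same-numbered samples had correlations of -0.11, 0.22, -0.11 and 0.25. *Mettl3*-CKO replicates 2 and 4 matched the control of their own number best, and replicates 1 and 3 did not. Values this few and weak cannot decide whether the numbers pair the samples. With the replicate block *Ifih1* had a log2 fold change of -1.02 (adjusted p = 0.0932 from edgeR), and 1198 genes were called higher and 660 lower. Directions turned for *Ddx58* without control replicate 2 (0.14, with -0.56 to 0.14 over the fits without 1 library) and for the permuted difference of *Ifit1* with a prior count of 0.5 (0.19).

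Over all genes, voom called 2142 higher and 1568 lower, and DESeq2 1476 higher and 1019 lower. The fit with no filter on low counts called 1330 higher and 819 lower. At an adjusted p under 0.1, 1690 were higher and 1195 lower. Fits without 1 library called 509 to 1882 higher and 185 to 1289 lower. The fewest were called without *Mettl3*-CKO replicate 1 and the most without control replicate 1. Of the 166 other pathway genes listed, each fit tests its own share. Of these, voom called 12 higher and 8 lower, and DESeq2 7 higher and 4 lower. The fit with no filter on low counts called 7 higher and 7 lower, and the threshold of 0.1 gave 7 higher and 5 lower. Fits without 1 library called 1 to 10 higher and 1 to 5 lower, again with the most without control replicate 1. *Mettl3* passed the threshold with DESeq2 (-0.38, adjusted p = 0.0320) and voom (-0.39, adjusted p = 0.0139), and its log2 fold change ran from -0.49 to -0.31 without 1 library. The causes were not tested. Depth limits *Isg15* and *Ifit3*, with at most 22 and 13 counts in a library, and more so *Ifit1* and the ligands, which lie at or below 3 counts in every library but the 11 counts of *Ifit1* in control replicate 2.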
